A study of Mus musculus with 19 samples.

Results

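L1Md_Gf and L1Md_T are groups of mouse LINE-1 (L1) retrotransposons. The deposited tables hold 259 retrotransposon subfamilies, and 2 of them carry a name that starts with L1Md_Gf or L1Md_T. These are L1Md_Gf_5end, the 5′ part of the L1Md_Gf consensus, and L1Md_T_3end, the 3′ part of the L1Md_T consensus. Each group is thus seen through only one end of its element. The age of the elements cannot be read from these values, and their common description as young is taken from background knowledge.

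L1 elements are autonomous retrotransposons, which copy themselves through an RNA intermediate. The 5′ part of an element carries its promoter and ORF1, which encodes an RNA-binding protein. ORF2 encodes the endonuclease and reverse transcriptase, and the 3′ part ends in a poly(A) tract. Mouse L1 groups are told apart mainly by their promoters, and L1Md_A, L1Md_Gf and L1Md_T are the groups that still hold copies able to move. In fetal male germ cells, piRNAs guide *de novo* DNA methylation to the promoters of such elements. PLD6 (also called MitoPLD) is a mitochondrial protein needed to make piRNAs, and DNMT3L is a cofactor of the enzymes that set new DNA methylation.

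The libraries were made from poly(A) RNA of EpCAM-positive spermatogonia, which had been sorted by FACS from testes at postnatal day 7. EpCAM is a cell surface protein found on spermatogonia. There were 3 wild-type, 3 heterozygous and 5 KO libraries of the *Pld6* line, and 2 wild-type, 3 heterozygous and 3 KO libraries of the *Dnmt3l* line, 19 in all. Both lines were backcrossed to C57BL/6J. The labels call the libraries biological replicates. In the methods, the number of *Pld6* mice of each genotype equals the number of libraries, so that each library matches a single mouse. The *Dnmt3l* mice and libraries are equal in total number too, although the methods divide the controls between wild type and heterozygotes in another way than the labels. The tables list only retrotransposons, so the *Pld6* and *Dnmt3l* transcripts and the markers of spermatogonia and testicular somatic cells were not analysed here. In bulk RNA, a change in the share of cells that express an element and a change in the RNA per cell cannot be told apart.

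Values are RPM, the mapped reads of a subfamily scaled to the mapped total of the library. RPM is not divided by the length of the consensus, so levels of the 2 subfamilies are not compared with each other. The summed RPM over all subfamilies ranged from 2103.5 to 4413 in the 11 wild-type and heterozygous libraries and from 7178 to 14603 in the 8 KO libraries. The read depth is unknown. *Pld6* heterozygous library 1 stood apart, with 159 of the 259 subfamilies listed at 0 against 60 to 90 in the other 18 libraries. Both L1Md_Gf_5end and L1Md_T_3end were above 1 RPM in every library and were among the 114 subfamilies tested.

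L1Md_Gf_5end, which holds the promoter end of L1Md_Gf, was at 8.79, 12.45 and 15.25 RPM in the *Pld6* wild-type libraries. It was at 100.46, 92.37, 75.67, 44.99 and 102.57 RPM in the *Pld6* KO libraries 1 to 5. All 5 were above each control library of the line, wild-type or heterozygous, and the lowest KO library was 2.95 times the highest control. In the *Dnmt3l* line, L1Md_Gf_5end was at 12.12 and 12.59 RPM in the wild type and at 48.53, 39.77 and 52.47 RPM in the KO. The groups did not overlap there either, with the lowest KO library at 3.16 times the highest control.

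L1Md_T_3end was at 34.5, 43.02 and 49.39 RPM in the *Pld6* wild-type libraries. In the *Pld6* KO libraries 1 to 5 it was at 154.17, 209.36, 159.92, 147.18 and 166.95 RPM. The lowest of these was 2.98 times the highest control library of the line. In the *Dnmt3l* line, the wild-type libraries had 42.95 and 39.09 RPM and the KO libraries had 91.29, 79.32 and 104.65 RPM. Here too each KO library exceeded each control, the lowest by a ratio of 1.85 to the highest control. A lack of overlap of this kind was common in these data. Of the tested subfamilies, 31.6% had all *Pld6* KO libraries above all controls of the line, and 59.6% did so in the *Dnmt3l* line.

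**Figure D1:**
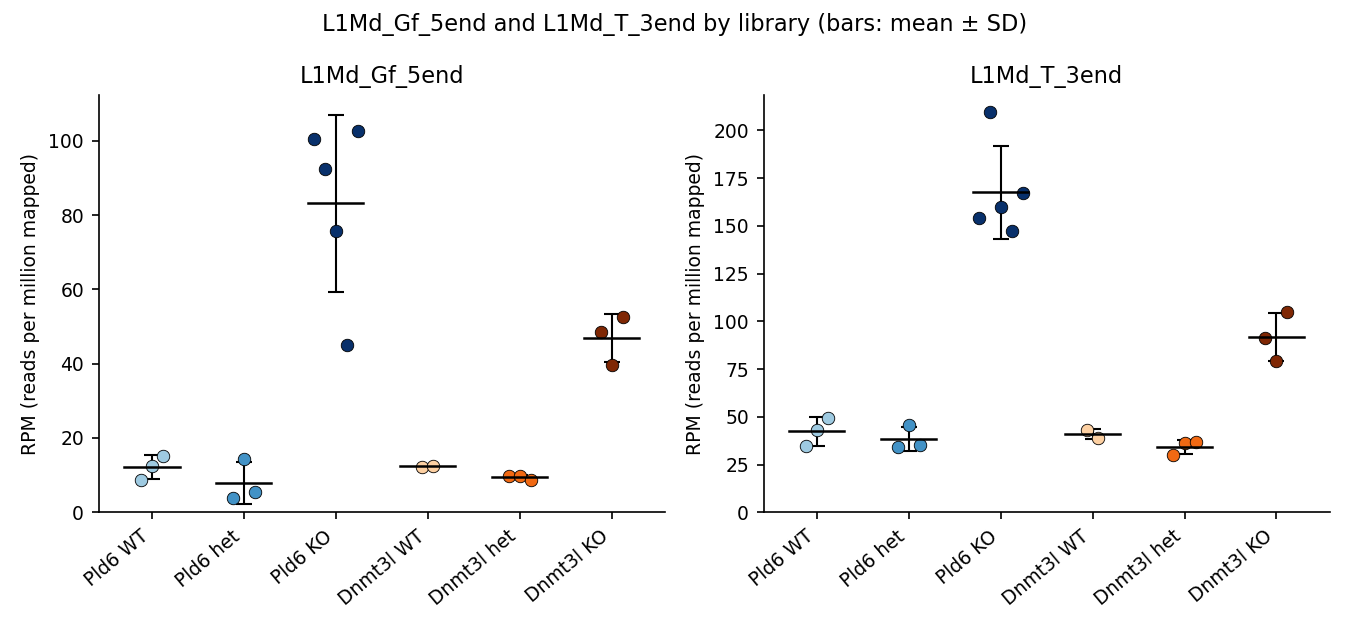
RPM (linear axis from 0) of L1Md_Gf_5end (left) and L1Md_T_3end (right) in each of the 19 libraries, by line and genotype. Each point is 1 library, horizontal lines are group means and error bars are SD. The *Pld6* KO libraries sit between 44.99 and 102.57 RPM on the left and between 147.18 and 209.36 RPM on the right, above all *Pld6* wild-type and heterozygous libraries.

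The *Pld6* comparison asked how the RNA of these elements changed without PLD6, which is needed to make piRNAs. In the paper, the L1 promoter copies that lost DNA methylation in *Pld6* KO were mostly of L1Md_A and L1Md_Gf. The *Pld6* comparison by itself therefore does not separate the piRNA pathway from DNA methylation. That statement of the paper does not name L1Md_T. The paper treats *Dnmt3l* KO as lacking *de novo* methylation while keeping piRNAs. From the smaller L1 rise there, L1Md_Gf_5end included, it proposes that piRNAs also restrain L1 beyond the lost methylation. Whether the 2 KO comparisons together separate these was not tested here. Mean L1Md_Gf_5end was 12.2 ± 3.24 RPM in the wild type (SD, n = 3). In the KO it rose to 83.2 ± 23.8 RPM (SD, n = 5), 6.40 times the wild-type mean. Single KO libraries lay between 3.49 and 7.87 times the wild-type mean. On the log2(RPM + 1) scale the difference was 2.65 ± 0.31 (SE), with a 95% interval from 2.01 to 3.29 and an adjusted p of 5.0e-07 by limma with Benjamini-Hochberg adjustment. It was the 12th largest increase of the 114 tested subfamilies.

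L1Md_T_3end had a wild-type mean of 42.3 ± 7.47 RPM (SD, n = 3). It rose 3.89-fold in the KO, where the mean was 168 ± 24.5 RPM (SD, n = 5) and single libraries lay between 3.42 and 4.86 times the wild-type mean. The log2 difference was 1.96 ± 0.16 (SE), with a 95% interval from 1.63 to 2.30 and an adjusted p of 4.1e-09 by limma, the 14th largest increase. Both subfamilies thus changed by more than the spread between libraries. As background, 30.7% of the tested subfamilies were called higher in *Pld6* KO (35 subfamilies) and none was called lower by limma (1 lower at an unadjusted p under 0.05).

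The *Dnmt3l* comparison asked the same for the loss of DNMT3L, the cofactor in *de novo* DNA methylation. L1Md_Gf_5end rose 3.59-fold, with means of 12.4 ± 0.33 RPM in the wild type (SD, n = 2) and 46.9 ± 6.50 RPM in the KO (SD, n = 3), and single KO libraries were at 3.05 to 4.00 times the wild-type mean. The log2 difference was 1.83 ± 0.38 (SE), with a 95% interval from 1.03 to 2.64 and an adjusted p of 6.0e-04 by limma. L1Md_T_3end rose 2.21-fold, with means of 41.0 ± 2.73 RPM (SD, n = 2) and 91.8 ± 12.7 RPM (SD, n = 3) and single KO libraries at 1.91 to 2.51 times the wild-type mean. Its log2 difference was 1.14 ± 0.20 (SE), with a 95% interval from 0.72 to 1.56 and an adjusted p of 1.2e-04 by limma. Among the 114 subfamilies these were the 19th and the 30th largest increases. The background was high in this line, since 38.6% of the tested subfamilies were called higher (44 subfamilies) and 2 were called lower, the SINE B2_Mm2 and MMERVK10D3_I.

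The size of these increases depended on the scaling of the libraries. When the libraries were rescaled by median ratios, the median log2 difference over the tested subfamilies moved in *Pld6* KO (0.26 before, -0.14 after) and in *Dnmt3l* KO (0.50 before, -0.02 after). Calls then split into 29 higher and 16 lower in *Pld6* KO and 27 higher and 9 lower in *Dnmt3l* KO. In the *Pld6* line the scaled differences were 2.15 for L1Md_Gf_5end and 1.45 for L1Md_T_3end. In the *Dnmt3l* line L1Md_Gf_5end fell to a difference of 1.19 (adjusted p = 0.00762 by limma), and L1Md_T_3end to 0.48 (adjusted p = 0.045 by limma). Both subfamilies stayed above the median of all tested subfamilies in both lines under either scaling.

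Heterozygous mice carry one working copy of the gene and served as a second set of controls. L1Md_Gf_5end was at 3.89, 14.47 and 5.43 RPM in the *Pld6* heterozygous libraries, so that libraries 1 and 3 lay below all wild-type libraries and library 2 lay among them. The log2 difference from wild type was -0.71 ± 0.34 (SE), with an adjusted p of 0.624 by limma and an interval from -1.43 to 0.01. Without library 1, which stood apart in its number of zeros, the difference was -0.37 (adjusted p = 0.991 by limma), and without library 2 it was -1.20 (adjusted p = 0.051 by limma).

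L1Md_T_3end was at 34.4, 45.66 and 35.08 RPM in the same libraries and overlapped the wild type, with a difference of -0.13 ± 0.18 (SE) and an adjusted p of 0.776 by limma. Without library 1 the difference was -0.06, and under the median-ratio scaling its sign turned, to 0.01. No tested subfamily, 0%, was called lower or higher in *Pld6* heterozygotes by limma, and 5 were lower at an unadjusted p under 0.05.

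In the *Dnmt3l* heterozygous libraries, L1Md_Gf_5end was at 9.78, 9.86 and 8.77 RPM, below both wild-type libraries. L1Md_T_3end was at 29.75, 36.08 and 36.79 RPM, also below both. The differences of -0.35 ± 0.38 (SE) and -0.26 ± 0.20 (SE) did not pass the test, with an adjusted p of 0.95 by limma for each. Their 95% intervals ran from -1.16 to 0.45 and from -0.68 to 0.16. In this comparison 0% of the subfamilies were called, and none had an unadjusted p under 0.05 in limma. Lying below both wild-type libraries was not particular to L1Md_Gf_5end and L1Md_T_3end. L1_Mm_orf2 and L1Md_F2_3end did so too, whereas L1Md_A_5end and L1Md_A_3end overlapped the wild type. The other 16 tested LINE subfamilies had a median log2 difference of -0.24, against -0.07 over all tested subfamilies. The share of all tested subfamilies in this order was not counted.

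The wild types of the 2 lines had similar values. The log2 difference between the *Dnmt3l* and the *Pld6* wild types was 0.05 ± 0.38 (SE) for L1Md_Gf_5end, with a 95% interval from -0.75 to 0.86. For L1Md_T_3end it was -0.03 ± 0.20 (SE), with an interval from -0.45 to 0.39. Both had an adjusted p of 0.991 by limma. Of all tested subfamilies 0.877% were called in this comparison, which is 1 subfamily, the SINE B2_Mm2.

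Ordered by mean level, L1Md_Gf_5end was highest in *Pld6* KO, followed by *Dnmt3l* KO, *Dnmt3l* wild type, *Pld6* wild type, *Dnmt3l* heterozygotes and *Pld6* heterozygotes. The first 2 groups overlapped, because *Pld6* KO library 4 with 44.99 RPM lay within the *Dnmt3l* KO range of 39.77 to 52.47 RPM. *Dnmt3l* KO did not overlap *Dnmt3l* wild type, and each of the neighbours below overlapped the next. L1Md_T_3end was highest in *Pld6* KO, then *Dnmt3l* KO, *Pld6* wild type, *Dnmt3l* wild type, *Pld6* heterozygotes and *Dnmt3l* heterozygotes. Here the 2 KO groups did not overlap each other or the rest, and each of the 4 control groups overlapped its neighbour. The share of tested subfamilies whose 2 KO groups lay apart was not counted.

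The difference between the mutants was tested as the KO effect in the *Dnmt3l* line less that in the *Pld6* line, each against its own wild type. For L1Md_T_3end it was -0.83 ± 0.26 (SE), with a 95% interval from -1.37 to -0.29 and an adjusted p of 0.04 by limma, so that its increase was larger in *Pld6* KO. Of the tested subfamilies 4.39% were called in this direction. These 5 subfamilies were L1Md_T_3end, L1Md_A_3end, L1_Mm_orf2, IAPEy-int and IAPEY_LTR. The call lay close to the threshold. Its adjusted p was 0.0521 with a pseudocount of 0.5 in place of 1, 0.099 against heterozygous controls without *Pld6* heterozygous library 1, and 0.00739 under the median-ratio scaling. Leaving out 1 library at a time gave values from -0.95 to -0.69, and the call was lost in 10 of 14 such fits, with adjusted p from 0.0507 to 0.184 by limma. Those were the fits without *Dnmt3l* wild-type library 1 or 2, *Dnmt3l* KO library 1 or 2, *Pld6* wild-type library 1 or 2, or *Pld6* KO library 1, 2, 3 or 5.

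For L1Md_Gf_5end the same difference was -0.82 ± 0.49 (SE), with an interval from -1.84 to 0.21 and an adjusted p of 0.315 by limma. Its size was close to that of L1Md_T_3end with a wider error, and it did not pass the test. Without *Pld6* KO library 4, which had the lowest L1Md_Gf_5end of its group, the difference was -1.02 with an adjusted p of 0.152 by limma. Each line was compared with its own wild type, and the mutation and any other difference between the 2 sets of KO mice cannot be told apart.

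**Figure D2:**
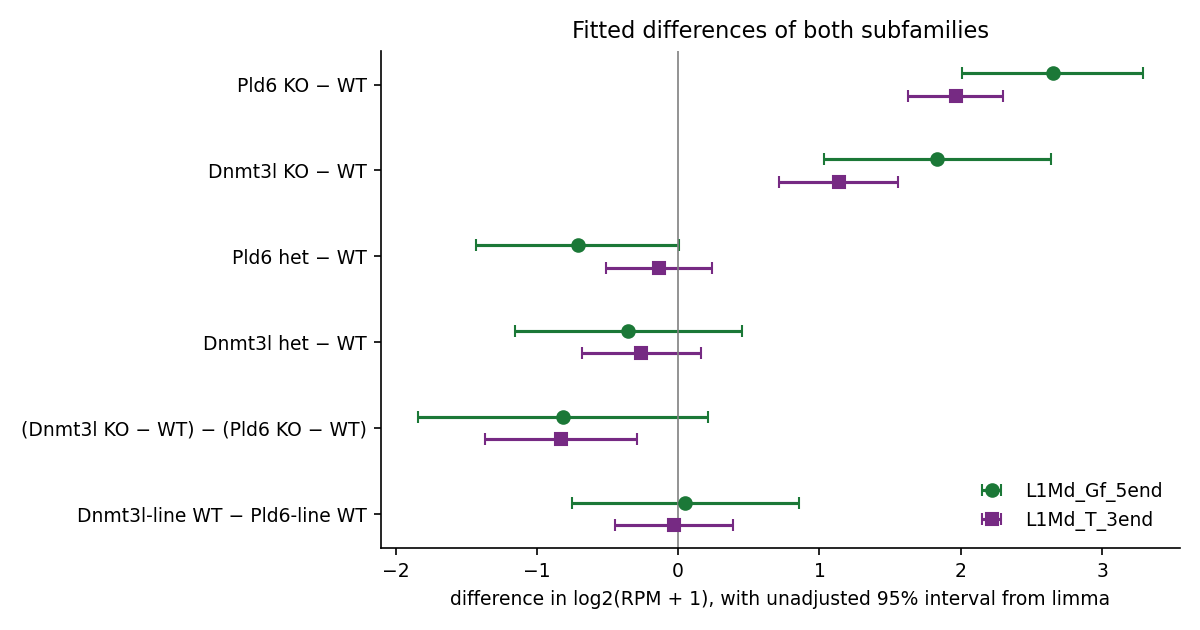
Fitted differences in log2(RPM + 1) for L1Md_Gf_5end (circles) and L1Md_T_3end (squares) in 6 comparisons, with unadjusted 95% intervals from limma. Both KO comparisons lie to the right of 0, from 1.14 to 2.65, and the intervals of the heterozygous and wild-type comparisons include 0.

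The other LINE subfamilies in the tables number 17, of which 6 are 5′ parts, 2 are ORF2, 8 are 3′ parts and 1 is undivided, and 16 were tested. In *Pld6* KO, 5 of the 16 were called higher and none lower, with a median log2 difference of 0.30 against 0.26 over all tested subfamilies. In *Dnmt3l* KO, 4 of the 16 were called higher and none lower, with a median of 0.39 against 0.50 over all. Both L1Md_Gf_5end and L1Md_T_3end thus lay well above the median of the list in each line. Over all tested subfamilies, 30.7% were called higher in *Pld6* KO and 38.6% in *Dnmt3l* KO, so the LINE counts were near or below that share. The counts moved with the controls. Against heterozygotes, 10 of the 16 were called higher in *Pld6* KO and 8 in *Dnmt3l* KO. The counts over all 114 tested subfamilies moved too, reaching 52 in *Pld6* KO and 67 in *Dnmt3l* KO over the alternatives. Those are the highest counts of any alternative. The LINE counts against heterozygotes are thus not set beside a share of the same setting and are given as values only. Under the median-ratio scaling 4 and 3 of the 16 were called higher, and L1_Mus1_3end was called lower in *Pld6* KO, at -0.45.

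Among the 5′ parts, L1Md_A_5end, the promoter end of L1Md_A, had the largest difference in either line. It rose by 4.96 ± 0.36 (SE, log2, adjusted p = 8.7e-10 by limma) in *Pld6* KO and by 3.75 ± 0.44 (adjusted p = 7.2e-07 by limma) in *Dnmt3l* KO. The other 4 tested 5′ parts did not pass the test in either line. Their wild-type means were low, from 0.79 to 2.74 RPM, where the added 1 RPM compresses any change. L1Md_F_5end, the promoter end of the L1Md_F group, was the highest of them, at 0.33 ± 0.35 (adjusted p = 0.531 by limma) in *Pld6* KO and 0.69 ± 0.43 (adjusted p = 0.223 by limma) in *Dnmt3l* KO. On this scale L1Md_Gf_5end therefore lay between L1Md_A_5end and the remaining, low 5′ parts.

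Among the 3′ parts, L1Md_A_3end and L1Md_F2_3end were called higher in both lines and the other 6 in neither. L1Md_A_3end, from the same L1 group as L1Md_A_5end, rose by 3.55 ± 0.14 (SE, log2) in *Pld6* KO and by 1.84 ± 0.17 in *Dnmt3l* KO. L1Md_F2_3end rose by 0.69 ± 0.16 and by 0.63 ± 0.19, and both calls were lost under the median-ratio scaling, at 0.17 and -0.03. L1Md_T_3end lay between these. Of the ORF2 consensus sequences, L1_Mm_orf2 rose by 3.62 ± 0.22 in *Pld6* KO and by 1.98 ± 0.28 in *Dnmt3l* KO, and L1_Mus3_orf2 by 1.37 ± 0.21 in *Pld6* KO (adjusted p = 1.5e-05 by limma). In *Dnmt3l* KO, L1_Mus3_orf2 had a difference of 0.50 ± 0.26 (adjusted p = 0.147 by limma). In the test of the difference between the mutants, 2 of the 16 were called and both were larger in *Pld6* KO, L1Md_A_3end at -1.71 ± 0.22 and L1_Mm_orf2 at -1.64 ± 0.35.

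**Figure D3:**
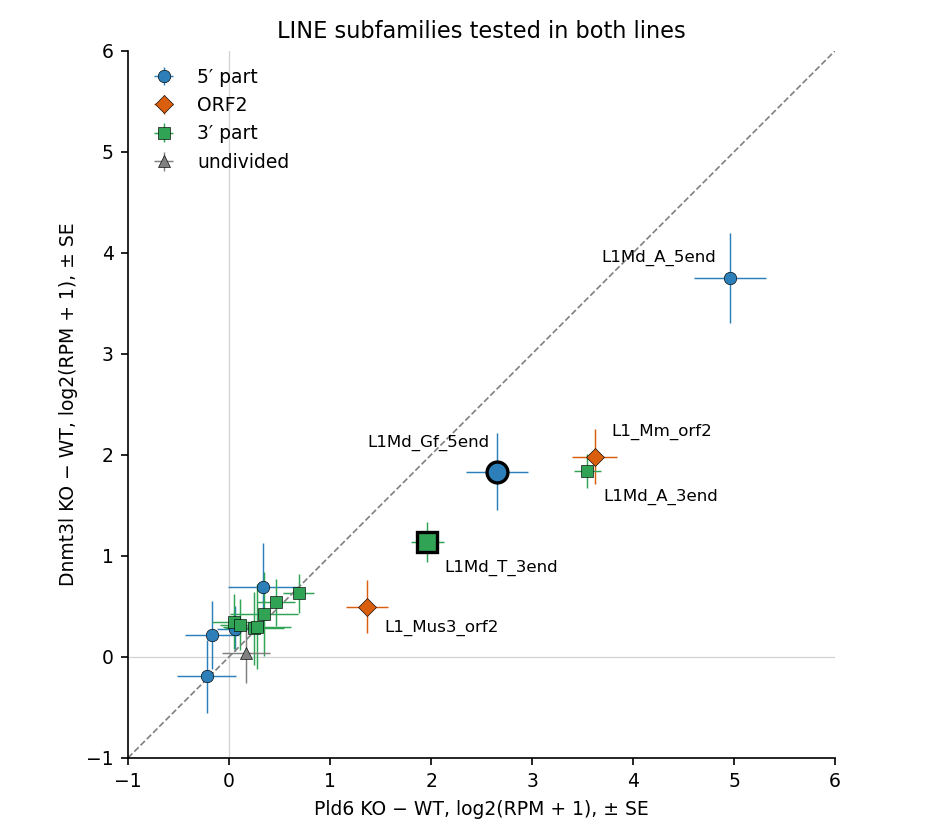
Log2 differences (RPM + 1) of the 18 tested LINE subfamilies in *Pld6* KO (horizontal axis) and *Dnmt3l* KO (vertical axis), each against the wild type of its line, with SE bars. Symbols give the part of the element, the large outlined symbols are L1Md_Gf_5end and L1Md_T_3end, and the dashed line marks equal differences. Both lie below the dashed line, between the L1Md_A and L1_Mm consensus sequences and the group of LINE subfamilies near 0.

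The rise of both subfamilies was set against that of L1Md_A within each library, since a ratio of values from the same library does not depend on a factor common to that library. The ratio of L1Md_Gf_5end to L1Md_A_5end compares both promoter ends. In RPM it was 1.11, 0.99 and 1.24 in the *Pld6* wild type and between 0.20 and 0.26 in the 5 *Pld6* KO libraries. The log2 ratio of (RPM + 1) went from 0.13 ± 0.15 (SD, n = 3) to -2.18 ± 0.14 (SD, n = 5), a difference of -2.31. In the *Dnmt3l* line the ratio was 1.41 and 1.32 in the wild type and 0.33, 0.37 and 0.35 in the KO, a log2 difference of -1.91. In both lines the groups did not overlap, and L1Md_A_5end rose by the larger factor. L1Md_A_5end had the 2nd largest increase of the 114 tested subfamilies in *Pld6* KO and the 8th largest in *Dnmt3l* KO. Any subfamily that rises by a smaller factor falls against it, so the fall is not particular to L1Md_Gf_5end. The share of subfamilies without overlap in this ratio was not counted.

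The ratio of L1Md_T_3end to L1Md_A_3end compares the 3′ ends. Its log2 value went from 0.40 ± 0.09 (SD, n = 3) to -1.19 ± 0.11 (SD, n = 5) in the *Pld6* line. In the *Dnmt3l* line it went from 0.39 ± 0.02 (SD, n = 2) to -0.32 ± 0.05 (SD, n = 3). The differences were -1.58 and -0.70, and again no KO library overlapped the wild type of its line. L1Md_A_3end had the 7th largest increase in *Pld6* KO and the 18th largest in *Dnmt3l* KO. A fall against it is likewise not particular to L1Md_T_3end, and its share over all subfamilies was not counted. L1Md_A_3end was at 27.93 to 35.52 RPM in the *Pld6* wild type and at 357 to 423 RPM in *Pld6* KO. In the *Dnmt3l* line it was at 29.92 and 32.32 RPM in the wild type and at 99.7 to 125 RPM in the KO. Since RPM is not divided by length, only the change of the ratio is read, not which subfamily is higher.

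L1Md_Gf_5end rose by a larger factor than L1Md_T_3end in most KO libraries. These are a 5′ part and a 3′ part, so the L1 group and the end of the element cannot be told apart. Within L1Md_A the 5′ part also rose more than the 3′ part, by 4.96 against 3.55 (log2) in *Pld6* KO. In *Dnmt3l* KO it rose by 3.75 against 1.84. In RPM, L1Md_Gf_5end was 0.25, 0.29 and 0.31 of L1Md_T_3end in the *Pld6* wild type, and 0.65, 0.44, 0.47, 0.31 and 0.61 in the *Pld6* KO libraries 1 to 5. Library 4 thus lay within the wild-type range. The log2 difference was 0.69 in the *Pld6* line, with an exact permutation p of 0.0714, and 0.70 in the *Dnmt3l* line, where the ratio was 0.28 and 0.32 in the wild type and 0.53, 0.50 and 0.50 in the KO.

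The 6 comparisons of ratios were tested with two-sided exact permutation tests. The smallest p that 5 libraries against 3 allow is 0.0357, which both L1Md_A ratios reached in the *Pld6* line. The smallest p of 3 against 2 is 0.2, which all ratios reached in the *Dnmt3l* line. Adjusted over the 6 tests, no p under 0.05 was possible in either line, since the smallest that these group sizes allow is 0.0714 for the *Pld6* line and 0.2 for the *Dnmt3l* line. The adjusted p of 0.107 for the L1Md_A ratios in *Pld6* KO, 0.143 for L1Md_Gf_5end to L1Md_T_3end in *Pld6* KO and 0.2 for the *Dnmt3l* line by the exact permutation test are therefore given as values only.

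**Figure D4:**
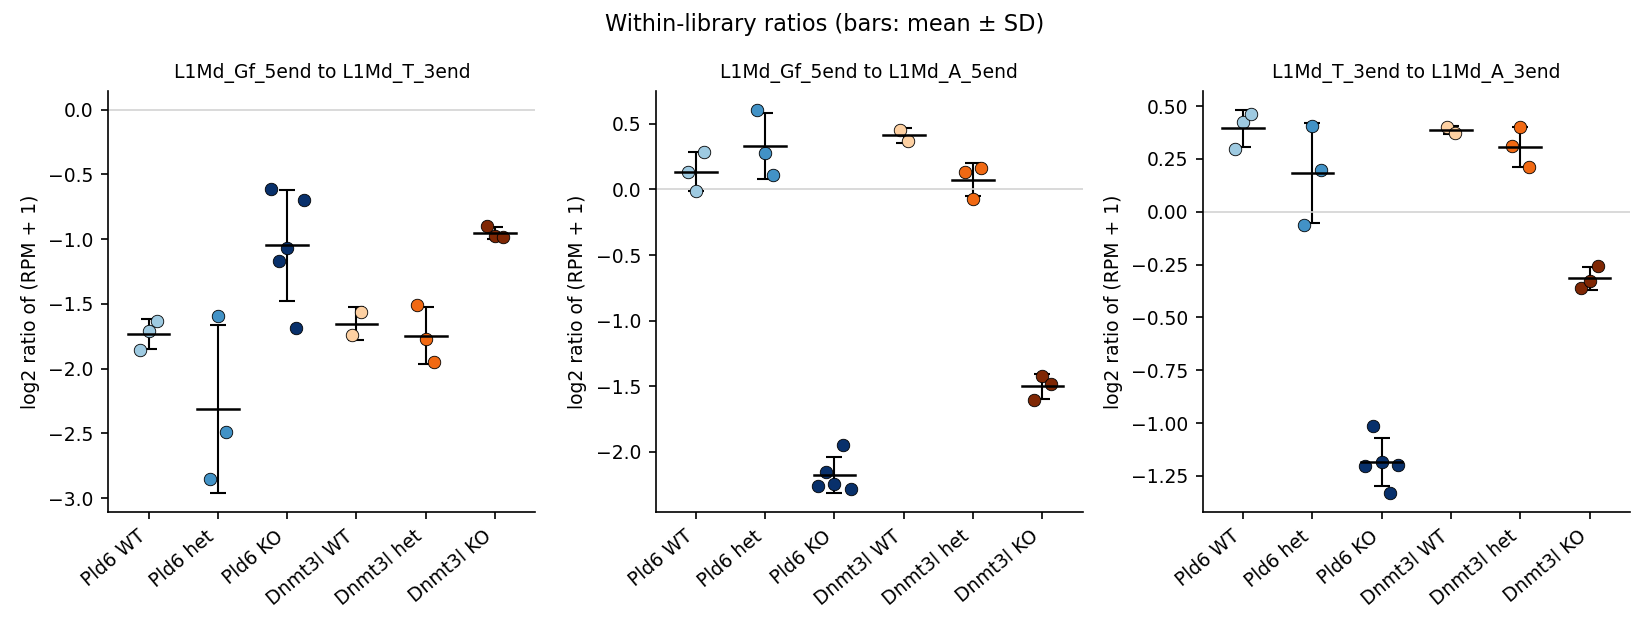
Log2 ratios of (RPM + 1) within each library, for L1Md_Gf_5end to L1Md_T_3end (left), L1Md_Gf_5end to L1Md_A_5end (middle) and L1Md_T_3end to L1Md_A_3end (right), each panel with its own vertical axis. Points are libraries, horizontal lines are means and error bars are SD. In the middle and right panels all KO libraries lie below all wild-type libraries of their line, and in the left panel *Pld6* KO library 4, at -1.69, lies within the wild-type range.

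Some libraries of the *Pld6* line stood lower at the 5′ parts of L1Md_Gf and L1Md_A than at the 3′ parts of L1Md_T and L1Md_A. In *Pld6* KO library 4, L1Md_Gf_5end (44.99 RPM) and L1Md_A_5end (176 RPM) were the lowest of the group, against 75.67 to 102.57 RPM and 362 to 502 RPM in the other 4 libraries. L1Md_A_3end in library 4 was at 372 RPM, within the range of the others, and L1Md_T_3end at 147.18 RPM was just under the next value of 154.17 RPM. *Pld6* heterozygous libraries 1 and 3 showed the same order. Their L1Md_A_5end was at 2.21 and 4.97 RPM against 7.95 to 12.55 RPM in the wild type. Their L1Md_A_3end was at 36.01 and 30.41 RPM against 27.93 to 35.52 RPM. This order did not hold for all LINE subfamilies. In heterozygous library 1 the 3′ part L1_Mus1_3end was low too, at 10.56 RPM against 19.66 to 27.5 RPM in the wild type. Other 3′ parts fell further there. L1_Mus2_3end was at 1.71 RPM against 8.34 to 10.23 RPM, and L1_Mus3_3end at 1.77 RPM against 6.04 to 7.82 RPM. L1_Mus4_3end was at 1.06 RPM against 5.66 to 7.98 RPM. Low values in that library were thus not confined to 5′ parts. In KO library 4, L1_Mm_orf2 was also the lowest of its group, at 1573 RPM against 2280 to 2713 RPM. So was L1_Mus3_orf2, at 120.21 RPM against 155.43 to 193.59 RPM.

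The ratio of L1Md_A_5end to L1Md_A_3end, consensus sequences of 1 L1 group, was 0.47 in *Pld6* KO library 4 against 0.98 to 1.36 in the other *Pld6* KO libraries. Both are values of a whole subfamily, so the ratio does not describe the ends of single transcripts. It was 0.06 and 0.16 in *Pld6* heterozygous libraries 1 and 3 against 0.28 to 0.39 in the *Pld6* wild type. L1Md_Gf_5end was lowest in the same libraries within both groups. The part that RNA quality had in these values was not tested. Without *Pld6* KO library 4 the L1Md_Gf_5end difference in *Pld6* KO was 2.85 on the log2 scale, and it kept its call.

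L1Md_Gf_5end and L1Md_T_3end held a small part of the LINE reads. L1Md_Gf_5end took 2.03% to 2.70% of the summed LINE RPM in the *Pld6* wild type and 1.69% to 2.67% in *Pld6* KO, which overlap. In the *Dnmt3l* line it took 2.06% and 2.39% in the wild type and 2.96% to 3.11% in the KO. The share of L1Md_T_3end was lower in every KO library than in every wild-type library of its line, at 3.99% to 5.54% against 7.50% to 8.76% in the *Pld6* line and 5.86% to 6.10% against 7.29% and 7.41% in the *Dnmt3l* line. The share of L1Md_T_3end thus went down while its RPM went up. The mean summed LINE RPM rose from 524 to 3755 RPM in *Pld6* KO and from 558 to 1540 RPM in *Dnmt3l* KO. Any LINE subfamily that rises by a smaller factor than this sum loses share, so the fall is not particular to L1Md_T_3end. Of the gain in summed LINE RPM in *Pld6* KO, 3232 RPM, L1Md_Gf_5end made up 71.1 RPM or 2.20% and L1Md_T_3end 125 RPM or 3.87%. L1_Mm_orf2 made up 66.4% of it. In *Dnmt3l* KO, L1Md_Gf_5end made up 3.52% and L1Md_T_3end 5.17% of a gain of 982 RPM.

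Likeness to the other 113 tested subfamilies was measured as the mean absolute difference between log2(RPM + 1) profiles over the 19 libraries, each centred on its mean in the 11 wild-type and heterozygous libraries. A value of 0 would mean the same profile. All 19 libraries enter together, so the measure mainly reflects how far 2 subfamilies moved in the KO libraries, and it is given as a description. For L1Md_Gf_5end the nearest were L1_Mm_orf2 at 0.341, L1Md_A_3end at 0.458, the LTR MMERGLN_LTR at 0.520, L1Md_T_3end at 0.540 and IAPEY5_I, an internal part of an IAP element, at 0.586. On this centred scale L1Md_Gf_5end averaged 2.92 in *Pld6* KO and 2.15 in *Dnmt3l* KO. L1_Mm_orf2, its nearest, averaged 3.74 and 2.16. MMERGLN_LTR and IAPEY5_I were near it by another pattern, since their averages in *Dnmt3l* KO were as high as or higher than in *Pld6* KO, at 3.19 against 2.88 and at 2.50 against 1.77.

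For L1Md_T_3end the nearest were L1_Mus3_orf2 at 0.375, followed by 4 LTR element sequences, MMETn-int at 0.387, IAPEY3-int at 0.398, RLTR10A at 0.410 and ETnERV at 0.429. L1Md_T_3end averaged 2.09 in *Pld6* KO and 1.23 in *Dnmt3l* KO on the centred scale, and L1_Mus3_orf2 averaged 1.34 and 0.92. The 4 LTR sequences averaged between 1.00 and 1.55 in *Pld6* KO. RLTR10A was low, at 0.43 ± 0.09 RPM in the *Pld6* wild type (SD, n = 3) and 2.88 ± 0.50 RPM in *Pld6* KO (SD, n = 5), where the added 1 RPM compresses the profile. L1Md_Gf_5end stood 14th in likeness to L1Md_T_3end, at 0.540. L1Md_A_5end was at rank 32 of 113 for L1Md_Gf_5end, with a difference of 0.996, and at rank 110 for L1Md_T_3end, with 1.48.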

How the data were processed

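The authors prepared directional poly(A) libraries, sequenced 50 bp of each fragment from one end and used hisat2 to align the reads to consensus sequences of retrotransposons. The deposited values are RPM, mapped reads scaled to the mapped total, for 259 subfamilies in each of 19 libraries. Trim Galore and mm10 are named in the submitters' processing notes. How reads that fit several consensus sequences were counted, and which reads make up the total, is not given in the sources used here, and a read of one L1 group could be counted under a similar one. Low RPM values fell on fractions of a step, so whole reads were not recovered, the depth is unknown and intervals for counting error cannot be had. The commonest value between 0 and 1 RPM was 0.03 to 0.14 in 18 libraries and 0.35 in *Pld6* heterozygous library 1.

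Groups followed the labels, which give 2 wild-type and 3 heterozygous *Dnmt3l* libraries where the methods text gives the opposite. The log2 of the deposited RPM plus 1 entered a linear model in limma (version 3.58.1, R 4.3.3) with 6 groups, no covariates and trended empirical Bayes variances, in which all 19 libraries took part. It covered the 114 subfamilies with at least 1 RPM in at least 2 libraries. This scale understates changes of low values. P-values were two-sided and Benjamini-Hochberg adjusted over the 114, with a threshold of 0.05. Log2 ratios of (RPM + 1) within libraries were compared by two-sided exact permutation tests in Python 3.11.15 with scipy 1.17.1 and numpy 2.4.6. Tables were read with pandas 2.3.3, and matplotlib 3.10.9 drew the figures. The fit was tested on simulated data. Named subfamilies are both members, L1Md_A_5end, L1Md_A_3end and L1_Mm_orf2, the nearest LINE subfamilies, and the 5 tested subfamilies most like each member. Others were named after their values were seen. These are L1Md_F_5end, L1Md_F2_3end, L1_Mus1_3end, L1_Mus2_3end, L1_Mus3_3end, L1_Mus4_3end, B2_Mm2, MMERVK10D3_I, IAPEy-int and IAPEY_LTR. The members and lists were chosen with earlier results of these data known. Consensus sequences were not analysed here. Alternatives covered pseudocounts of 0.1 and 0.5, no filter or a mean RPM of at least 5, median-ratio scaling over 33 subfamilies, the groups in the fit, the controls, the variance model in limma, a block for the replicate number, and leaving out each library in turn.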

Additional observations from a re-analysis of the deposited data

Results flagged for a closer look

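The effect of the KO on L1Md_T_3end differed between the lines by the test of the difference itself, at -0.83 on the log2 scale (*Dnmt3l* less *Pld6*), with an adjusted p of 0.04 by limma. Its adjusted p ranged from 0.00739 to 0.184 over 27 alternatives. No library stood out among the 5 *Pld6* KO libraries in the RPM, LINE share or ratios of either subfamily. The closest was L1Md_T_3end in library 2, whose gap to the next library was 0.682 of the range, under the limit of 0.71. The other groups have fewer than 4 libraries and were not examined in this way.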

How the results depend on the processing

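Of 234 values of L1Md_Gf_5end and L1Md_T_3end under an alternative, 216 kept their direction and side of the threshold, among them all 82 of the KO increases. These ranged from 2.15 to 3.36 for L1Md_Gf_5end and 1.45 to 2.10 for L1Md_T_3end in *Pld6* KO, and from 1.19 to 2.19 and 0.48 to 1.40 in *Dnmt3l* KO. The difference between the mutants for L1Md_T_3end was -0.83 (adjusted p = 0.0521 by limma) with a pseudocount of 0.5 and -0.63 against heterozygotes without *Pld6* heterozygous library 1, and -0.95 to -0.69 with 1 library left out. Its call was lost in 12 of 27 alternatives, and the cause was not tested. Signs turned where the value was near 0. L1Md_T_3end in *Pld6* heterozygotes was 0.012 after scaling. For the wild types, L1Md_Gf_5end was -0.012 with pooled controls without *Pld6* heterozygous library 1 and -0.15 to 0.22 with 1 library left out, and L1Md_T_3end was 0.001 in the fit with the replicate block and -0.166 to 0.087 with 1 library left out.

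With pooled wild-type and heterozygous controls, which raise the number of libraries, all 6 ratios passed the threshold. L1Md_Gf_5end to L1Md_T_3end was then 0.98 (0.81 without *Pld6* heterozygous library 1) in *Pld6* KO and 0.76 in *Dnmt3l* KO, L1Md_Gf_5end to L1Md_A_5end -2.41 (-2.33) and -1.71, and L1Md_T_3end to L1Md_A_3end -1.47 (-1.54) and -0.65, with adjusted p by the exact permutation test of 0.013 to 0.0357. With the other settings the groups are too small for an adjusted p under 0.05, so the p-values say nothing of how stable the ratios are.

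Same-numbered libraries correlated at -0.302 to 0.463 in their deviations from the group means. With 2 or 3 pairs per comparison, these values cannot settle whether the numbers pair libraries, and the main fit used no pairing. With the replicate number as a block, L1Md_Gf_5end was 2.80 and L1Md_T_3end 2.02 in *Pld6* KO. In *Dnmt3l* KO they were 1.85 and 1.10, and the difference between the mutants -0.96 and -0.92, and no call changed. The count of subfamilies higher in *Dnmt3l* KO, 44, was 27 after scaling and 67 against heterozygous or pooled controls without *Pld6* heterozygous library 1, and that of other LINE subfamilies, 4, was 7 to 13 with other controls and 8 with only the compared groups fitted. In *Pld6* KO the 5 other LINE subfamilies became 10 against heterozygotes. The count over all tested subfamilies there, 35, ranged from 29 to 52 over the alternatives. The 5 subfamilies with a larger increase in *Pld6* KO became up to 10 with other controls, and the 2 LINE subfamilies among them other than L1Md_T_3end became 4 without *Pld6* KO library 4. The 1 subfamily called between the wild types was 0 to 7. Alternatives with *Pld6* heterozygous library 1 left out of the controls were chosen after seeing the data. Unknown depth limits the reading of low values such as L1Md_Gf_5end in heterozygotes.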
